A study of Rattus norvegicus with 24 samples.

Results

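Cortical projection neurons are the glutamatergic neurons that carry signals out of the cerebral cortex or between its areas, and a small set of transcription factors marks their maturation and the layer in which they lie. The 9 genes described here, of 29539 in the deposited tables, were taken by name as factors of this kind: Neurod6, Neurod1, Neurod2, Tbr1, Fezf2, Bcl11b, Foxp2, Rorb and Cux2. All 9 were found, and all 9 were among the 14421 genes that passed the filter on low counts. Poly(A)-selected RNA was sequenced from 24 rat (Rattus norvegicus) brain samples. The SKF group (8 samples) is named for SKF-81297, an agonist of the D1-like dopamine receptors; in the series it was injected into the peritoneum on each of 3 days, beginning 1 h after a stab wound of the forebrain. The Vehicle group (8 samples) is named by that word alone and is read here as wounded rats given the carrier. The Normal Control group (8 samples) is not described further, and nothing says that it had a sham operation. Tissue is given as brain for all samples, with no region, collection time, strain, genotype, sex or age, and the labels leave unsaid whether each sample is a separate animal. The p-values therefore measure the spread between samples.

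As background, NeuroD proteins are basic helix-loop-helix factors that bind E-box sequences as partners of E proteins such as Tcf3, Tcf4 and Tcf12, while Id proteins bind the E proteins and keep them from DNA. Neurod1 acts early in neuronal differentiation and in granule neurons of the dentate gyrus and cerebellum, and Neurod2 and Neurod6 are kept on in mature glutamatergic neurons of the neocortex and hippocampus. Tbr1 specifies corticothalamic neurons of layer 6. Fezf2 and Bcl11b (also called Ctip2) specify the layer 5 neurons that project below the cortex, and Foxp2 marks layer 6. Rorb marks layer 4, and Cux2 marks the upper layers. Several of these genes are not confined to the cortex: Bcl11b and Foxp2 are known from striatal neurons, Bcl11b also from T cells, Foxp2 and Rorb from the thalamus.

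Neurod6 gave the largest difference from Normal Control among the 9 genes and Neurod2, its close relative, the smallest, so the start regions of these 2 genes are shown for comparison. Each runs from 250 bases before to 50 bases after the annotated start, 5′ to 3′ on the gene's strand, from RefSeq on build GRCr8. Neurod6 lies at chr4:86180106-86180405 and Neurod2 at chr10:83824228-83824527, both on the minus strand. Capitals mark 3 motifs searched on both strands: the E-box CANNTG, the cAMP response element TGACGTCA and the AP-1 site TGANTCA.
Neurod6: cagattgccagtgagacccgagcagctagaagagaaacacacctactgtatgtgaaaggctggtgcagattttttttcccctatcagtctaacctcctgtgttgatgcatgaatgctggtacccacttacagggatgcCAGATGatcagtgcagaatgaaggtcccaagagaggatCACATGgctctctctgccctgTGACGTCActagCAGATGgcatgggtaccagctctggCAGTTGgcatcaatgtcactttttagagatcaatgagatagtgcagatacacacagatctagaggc
Neurod2: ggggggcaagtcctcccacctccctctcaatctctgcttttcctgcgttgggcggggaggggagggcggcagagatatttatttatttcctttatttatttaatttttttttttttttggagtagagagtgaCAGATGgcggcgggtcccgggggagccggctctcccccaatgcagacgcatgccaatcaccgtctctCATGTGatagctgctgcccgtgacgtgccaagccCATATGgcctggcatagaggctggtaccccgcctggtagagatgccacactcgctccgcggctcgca
The Neurod6 stretch holds 4 E-boxes, starting 112, 74, 41 and 16 bases before the start, and 1 TGACGTCA starting 53 bases before it. The Neurod2 stretch holds 3 E-boxes, starting 118, 51 and 17 bases before the start, and neither of the other motifs. Of 33469 rat start regions of this kind, 72.1% hold an E-box, 16.6% hold at least 3 and 5.79% at least 4, while 1.83% hold TGACGTCA and 7.33% TGANTCA. A match is a description of the letters and not a bound site. Promoters of Neurod1, Tbr1, Fezf2, Rorb and Cux2 were also found, with 1 E-box each except in Fezf2, where the match was 1 AP-1 site. Bcl11b and Foxp2 were not among them.

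Library totals lay between 8911339 and 12383368 counts and did not differ between groups beyond their spread (two-sided exact permutation p = 0.143 for SKF against Vehicle, 0.114 for Vehicle against Normal Control and 0.929 for SKF against Normal Control). The vesicular glutamate transporter Slc17a7, a marker of forebrain glutamatergic neurons, ran from 608 to 1039 TPM in SKF, from 541 to 928 TPM in Vehicle and from 497 to 895 TPM in Normal Control, so such neurons were sampled in every library. TPM is a transcript level corrected for gene length and scaled to the same total in every library. The libraries differed in regional markers. Normal Control 6 had a summed TPM of 5392 over 10 striatal genes, against 244 to 1298 in the other Normal Control libraries, and 102 over 12 thalamus genes, against 365 to 958. Normal Control 4 stood at 2545 over 5 skeletal muscle genes, and the next library of its group at 22.8. Results of the 9 genes that rest on Normal Control 6 are given with and without it.

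Within the groups the levels ordered the 9 genes as follows. Tbr1 was the most abundant and Neurod1 the least abundant in all 3 groups. In SKF libraries the mean order was Tbr1, Neurod2, Cux2, Bcl11b, Fezf2, Rorb, Neurod6, Foxp2 and Neurod1. In Vehicle libraries it was the same but for Rorb, which stood above Fezf2. In Normal Control libraries Neurod6 took rank 2, directly after Tbr1 and level with Neurod2 (43.5 ± 13.4 against 43.4 ± 12.7 TPM, SD, n = 8), whereas it took rank 7 in SKF and in Vehicle. Most neighbours overlapped. Tbr1 lay above Neurod2 in 8 of 8 SKF and 8 of 8 Vehicle libraries. Fezf2 and Rorb, in contrast, exchanged places from library to library, with Fezf2 above Rorb in 5 of 8 SKF and 5 of 8 Normal Control libraries and Rorb above Fezf2 in 6 of 8 Vehicle libraries. In Normal Control, Bcl11b had a higher mean than Cux2 through 1 library alone, since it was above Cux2 in 1 of 8.

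**Figure D1:**
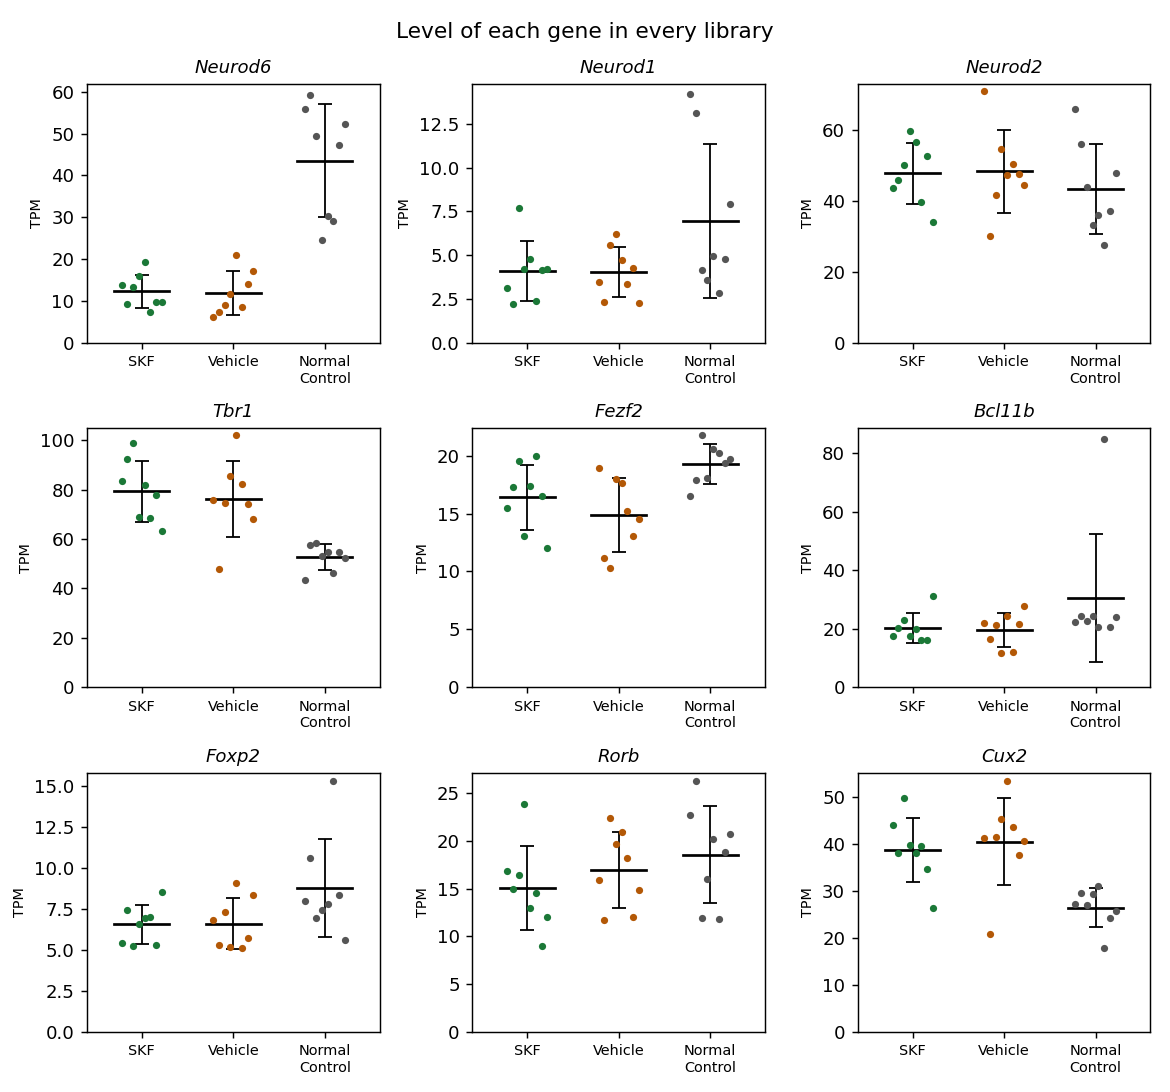
Level of each of the 9 genes in TPM (y axes, each with its own scale) in every library of the SKF, Vehicle and Normal Control groups. Points are libraries, the thick line is the mean and the bars are ± SD (n = 8). Neurod6 lies at 7.39 to 19.2 TPM in SKF, 6.25 to 21.1 TPM in Vehicle and 24.5 to 59.3 TPM in Normal Control, and a single Normal Control library holds the Bcl11b value of 84.8 TPM.

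Differences were read from a test of all 14421 genes with edgeR, where a gene was called at an adjusted p under 0.05. In Vehicle against Normal Control, 7 of the 9 genes were called: Tbr1 and Cux2 were higher, and Neurod6, Neurod1, Fezf2, Bcl11b and Foxp2 were lower. In SKF against Normal Control the same 7 were called, in the same directions. These 2 comparisons share the Normal Control libraries. In SKF against Vehicle 0 of the 9 were called. Calls were common among all genes. The test called 54.0% of genes in Vehicle against Normal Control (26.9% higher, 27.1% lower) and 50.2% in SKF against Normal Control (25.5% higher, 24.7% lower), and 0% in SKF against Vehicle. The median log2 fold change of the 9 genes was -0.51 in Vehicle against Normal Control, beside -0.01 over all genes tested, and -0.40 in SKF against Normal Control, beside -0.01. In CPM, counts scaled to library size, the groups did not overlap for 1 of the 9 genes in Vehicle against Normal Control (Neurod6, lower; 19.1% of all genes) and for 2 in SKF against Normal Control (Neurod6, lower, and Tbr1, higher; 18.6% of all genes). On the log2 TPM scale the balance of all calls differed, with 5475 genes higher and 2381 lower in Vehicle against Normal Control, where the median gene stood at 0.11, in place of 3879 and 3904. On that scale 4 of the 9 genes were called in Vehicle against Normal Control, and 3 in SKF against Normal Control.

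**Figure D2:**
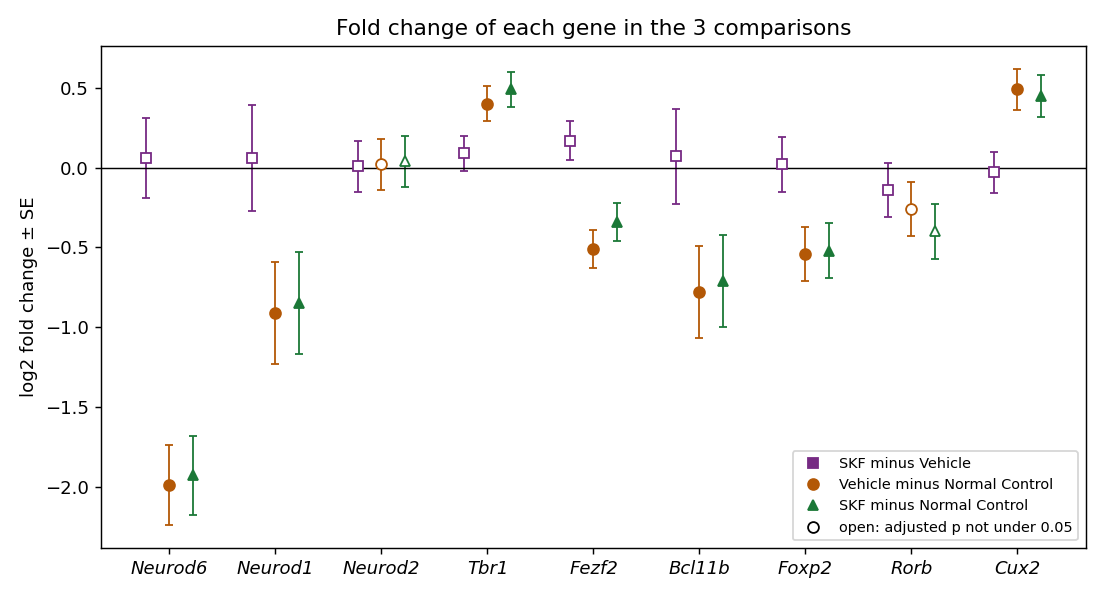
Fitted log2 fold change (y axis) ± SE of each gene in SKF minus Vehicle (squares), Vehicle minus Normal Control (circles) and SKF minus Normal Control (triangles). Filled symbols passed the adjusted p threshold of 0.05. Neurod6 lies lowest, at -1.99 and -1.93 against Normal Control, and Tbr1 and Cux2 lie above 0.

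Among the NeuroD factors, Neurod6 was much lower in both wounded groups, Neurod1 was lower on average with most of the difference in 2 libraries, and Neurod2 showed no detectable difference. Neurod6 had a lowest value of 7.39, a median of 11.5 and a highest value of 19.2 TPM in SKF, the same 3 figures being 6.25, 10.4 and 21.1 TPM in Vehicle and 24.5, 48.4 and 59.3 TPM in Normal Control. Every SKF and every Vehicle library was below every Normal Control library. The underlying reads were 81 to 198 in SKF, 55 to 211 in Vehicle and 280 to 613 in Normal Control. Its log2 fold change was -1.99 ± 0.25 (SE) in Vehicle against Normal Control, a level 3.97-fold lower (edgeR adjusted p = 3.89e-07, 8 of 8 libraries lower). In SKF against Normal Control it was -1.93 ± 0.25 (adjusted p = 6.74e-07, 8 of 8 libraries lower). Of the genes tested, 64 (0.444%) had a lower fold change than Neurod6 in Vehicle against Normal Control, and 70 (0.485%) in SKF against Normal Control. Neurod6 was called in 28 of 28 alternative settings in each of these comparisons, with log2 fold changes between -2.16 and -1.82 in Vehicle and between -2.10 and -1.73 in SKF. In bulk tissue, fewer cells of a type and less RNA per cell cannot be told apart. Markers of brain regions also differed between the wounded groups and Normal Control. All 12 thalamus genes were lower, with a median log2 fold change of -2.11 in Vehicle and -1.90 in SKF. The part of such regional differences in the Neurod6 values was not tested.

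Neurod2 ran from 34.1 to 59.7 TPM in SKF, from 30.0 to 70.8 TPM in Vehicle and from 27.5 to 65.9 TPM in Normal Control, with medians of 47.9, 47.2 and 40.5 TPM in that order of groups. The ranges overlapped almost wholly. Its log2 fold change was 0.02 (95% interval -0.31 to 0.36, edgeR adjusted p = 0.921) in Vehicle against Normal Control and 0.04 (-0.30 to 0.37, adjusted p = 0.873) in SKF against Normal Control. A difference of the size seen in Neurod6 therefore lies outside the interval of Neurod2.

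Neurod1 was the least abundant of the 9, with medians of 4.17 TPM in SKF, 3.86 TPM in Vehicle and 4.84 TPM in Normal Control. Its range was 2.24 to 7.71 TPM in SKF, 2.29 to 6.20 TPM in Vehicle and 2.87 to 14.2 TPM in Normal Control. Normal Control 1 and 2 held 14.2 and 13.1 TPM, and the other 6 libraries of that group were between 2.87 and 7.91 TPM, within or close to the ranges of the wounded groups. The fitted log2 fold change was -0.91 ± 0.32 in Vehicle against Normal Control (edgeR adjusted p = 0.0195) and -0.85 ± 0.32 in SKF against Normal Control (adjusted p = 0.0304). The call was lost in Vehicle without Normal Control 1 (-0.68, adjusted p = 0.0663) and without Normal Control 2 (-0.72, adjusted p = 0.0582), and without both it was -0.36 (adjusted p = 0.290). In SKF it was -0.61 (adjusted p = 0.0998) without Normal Control 1, -0.66 (adjusted p = 0.0870) without Normal Control 2 and -0.30 (adjusted p = 0.392) without both. It was also lost in SKF without SKF 1 (adjusted p = 0.0532), SKF 2 (0.0607) or SKF 6 (0.0604). Some markers of the hippocampus and dentate gyrus were lower too. C1ql2, a synaptic protein of dentate granule cells, averaged 7.14 ± 2.84 TPM in SKF, 6.01 ± 2.41 TPM in Vehicle and 25.3 ± 12.0 TPM in Normal Control, and reached its highest value of 47.5 TPM in Normal Control 1. Of 8 hippocampus and dentate gyrus genes 6 were tested, and 4 were lower and 0 higher in Vehicle against Normal Control (median log2 fold change -0.70). In SKF against Normal Control 4 were lower and 1 higher (median -0.83), the higher one being Wfs1, a marker of the CA1 field, at 0.70 ± 0.20 (adjusted p = 0.00548), with 0.42 ± 0.20 in Vehicle (adjusted p = 0.0769). Summed levels over the list were 137 to 235 TPM in SKF, 96.9 to 204 TPM in Vehicle and 108 to 219 TPM in Normal Control, with medians of 179, 164 and 140 TPM in the same groups. Wfs1 made up most of these sums, with means of 153, 129 and 87.7 TPM in the same groups. The sums therefore do not show the level of the other genes of the list. The part of hippocampal tissue in the Neurod1 and Neurod6 differences was not tested.

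The contrast between Neurod6 and its relatives was also taken within each library, as a ratio of TPM values, in which the scaling of the library cancels. These ratios were chosen after the values were seen, and neither their p-values nor the adjustment allows for that choice. Neurod6 over Neurod2 averaged 0.256 ± 0.0587 in SKF, 0.259 ± 0.116 in Vehicle and 1.00 ± 0.179 in Normal Control (SD, n = 8). The ratio was lower in 8 of 8 wounded libraries of each group than in any Normal Control library. The log2 difference was -2.08 ± 0.28 for Vehicle against Normal Control and -1.99 ± 0.15 for SKF against Normal Control (two-sided exact permutation p = 0.0001554 for each, the smallest that 12870 assignments can give, and 0.000311 after adjustment over 12 tests). Neurod6 over Tbr1 averaged 0.157 ± 0.0515, 0.156 ± 0.0568 and 0.832 ± 0.272 in SKF, Vehicle and Normal Control. Neurod6 over the glutamatergic marker Slc17a7 averaged 0.0147 ± 0.00408, 0.0157 ± 0.00609 and 0.0637 ± 0.0105 in the same groups. Both gave the same p, with log2 differences of -2.43 and -2.10 in Vehicle against Normal Control and of -2.40 and -2.14 in SKF against Normal Control. Neurod6 was thus lower relative to Neurod2, Tbr1 and Slc17a7 as well as relative to all transcripts.

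**Figure D3:**
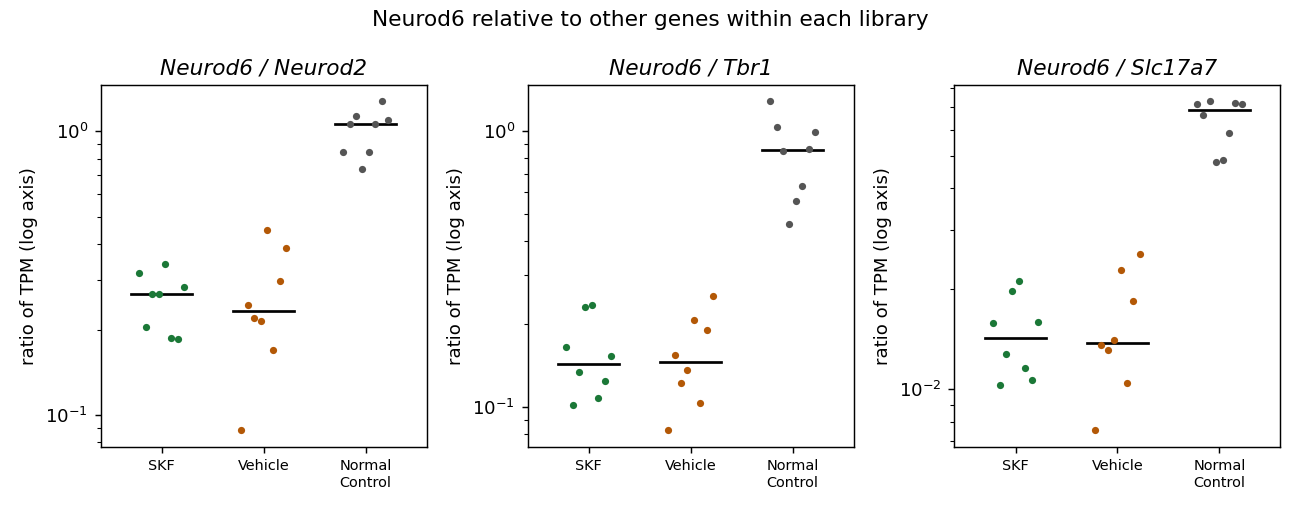
Ratio of Neurod6 to Neurod2, Tbr1 and Slc17a7 in TPM (y axes, log scale) in every library of the SKF, Vehicle and Normal Control groups. Points are libraries and lines are medians. In each panel all 8 SKF and all 8 Vehicle libraries lie below all 8 Normal Control libraries, and SKF and Vehicle overlap.

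Tbr1, the layer 6 factor, and Cux2, the upper-layer factor, were the 2 genes that were higher in the wounded groups. Tbr1 had a lowest value of 63.1, a median of 79.8 and a highest value of 98.9 TPM in SKF. In Vehicle the 3 values were 47.7, 75.2 and 102 TPM, and in Normal Control 43.6, 53.9 and 58.6 TPM. All 8 SKF libraries and 7 of 8 Vehicle libraries were above every Normal Control library, the exception being Vehicle 2 at 47.7 TPM. On the log2 scale the fold change was 0.40 ± 0.11 in Vehicle against Normal Control (edgeR adjusted p = 0.00218) and 0.49 ± 0.11 in SKF against Normal Control (adjusted p = 0.000352). Relative to Slc17a7, Tbr1 averaged 0.0954 ± 0.00827 in SKF, 0.0996 ± 0.00730 in Vehicle and 0.0808 ± 0.0158 in Normal Control. That ratio was higher in Vehicle (log2 difference 0.32 ± 0.11, two-sided exact permutation p adjusted over 12 tests = 0.0117) and did not pass in SKF (0.26 ± 0.11, adjusted p = 0.0520).

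Cux2 had a lowest value of 26.3, a median of 38.8 and a highest value of 49.7 TPM in SKF. The same values were 20.7, 41.2 and 53.3 TPM in Vehicle, and 17.8, 27.0 and 31.0 TPM in Normal Control. In CPM, 7 of 8 SKF libraries and 7 of 8 Vehicle libraries were above every Normal Control library, the low ones being SKF 8 and Vehicle 2. The log2 fold change was 0.49 ± 0.13 in Vehicle against Normal Control (edgeR adjusted p = 0.00254) and 0.45 ± 0.13 in SKF against Normal Control (adjusted p = 0.00501). Tbr1 and Cux2 were called in 28 of 28 alternative settings in both comparisons. The pan-neuronal nuclear marker Rbfox3, beside them, had 0.06 ± 0.10 in Vehicle against Normal Control (adjusted p = 0.598) and 0.15 ± 0.10 in SKF against Normal Control (adjusted p = 0.197). Rbfox3 does not stand for its list of 14 general neuronal genes, of which 10 were lower and 0 higher in Vehicle (median -0.36). In SKF 9 of that list were lower and 0 higher (median -0.31). The part of regional differences between the samples in the Tbr1 and Cux2 values was not tested.

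The other deep-layer factors, Fezf2, Bcl11b and Foxp2, were called lower in both wounded groups. Fezf2, which specifies layer 5 neurons that project to the brainstem and spinal cord, had a lowest value of 12.0, a median of 16.9 and a highest value of 20.0 TPM in SKF, against 10.3, 14.9 and 18.9 TPM in Vehicle and 16.5, 19.6 and 21.8 TPM in Normal Control. In CPM, 6 of 8 SKF and 7 of 8 Vehicle libraries were below every Normal Control library. In TPM, fewer libraries of each wounded group were below the lowest Normal Control value of 16.5 TPM. The fitted log2 fold change was -0.51 ± 0.12 in Vehicle against Normal Control (edgeR adjusted p = 0.000566) and -0.34 ± 0.12 in SKF against Normal Control (adjusted p = 0.0171). On the log2 TPM scale the SKF value was -0.23 (adjusted p = 0.0990).

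Bcl11b, a zinc-finger factor of layer 5 and of striatal projection neurons, had medians of 18.9 TPM in SKF, 21.4 TPM in Vehicle and 23.3 TPM in Normal Control. Its range was 16.0 to 31.2 TPM in SKF, 11.7 to 27.8 TPM in Vehicle and 20.6 to 84.8 TPM in Normal Control. The value of 84.8 TPM belonged to Normal Control 6, and the other 7 libraries of that group were between 20.6 and 24.5 TPM. On the log2 scale the fold change was -0.78 ± 0.29 in Vehicle against Normal Control (edgeR adjusted p = 0.0289) and -0.71 ± 0.29 in SKF against Normal Control (adjusted p = 0.0489). Without Normal Control 6 these were -0.32 (adjusted p = 0.117) and -0.25 (adjusted p = 0.235), so the calls rest on that library. In Vehicle the call was also lost without Vehicle 4 (adjusted p = 0.0551) or Vehicle 6 (adjusted p = 0.0559), and in SKF without any 1 of SKF 1 to SKF 7 (adjusted p = 0.0535 to 0.0831).

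Foxp2, a forkhead factor of layer 6, had medians of 6.76 TPM in SKF, 6.29 TPM in Vehicle and 7.89 TPM in Normal Control. Its range was 5.24 to 8.53 TPM in SKF, 5.09 to 9.10 TPM in Vehicle and 5.62 to 15.3 TPM in Normal Control, with the highest value again in Normal Control 6. The log2 fold change was -0.54 ± 0.17 in Vehicle against Normal Control (edgeR adjusted p = 0.00983) and -0.52 ± 0.17 in SKF against Normal Control (adjusted p = 0.0129). Without Normal Control 6 these were -0.35 (adjusted p = 0.0275) and -0.34 (adjusted p = 0.0370), smaller than with it. On the log2 TPM scale neither passed (-0.33 in each, adjusted p = 0.0622 and 0.0675).

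Striatal markers are given beside Bcl11b and Foxp2, since Normal Control 6 was high in all of these. The summed level of 10 striatal genes was 852 to 1820 TPM in SKF, 350 to 1534 TPM in Vehicle and 244 to 5392 TPM in Normal Control, with medians of 1000, 1006 and 1005 TPM in the same groups, and none of these genes was at 0 in a group. Of the 10, with a median log2 fold change of -0.96, 2 were lower in Vehicle against Normal Control and 0 were higher: the phosphodiesterase Pde10a at -1.37 ± 0.39 and the retinoic acid receptor Rarb at -0.82 ± 0.32. Without Normal Control 6 the median was -0.06, Pde10a was at -0.72 (edgeR adjusted p = 0.0134) and Rarb at -0.23 (adjusted p = 0.215), and Pde10a alone was called. Within groups, Bcl11b correlated with the striatal score across the 24 libraries at a Pearson r of 0.83, and of 0.69 without Normal Control 6. Foxp2 correlated with it at 0.64, and at 0.40 without that library. Bcl11b had an r of 0.74, and of 0.61 without that library, with the score of 7 genes of GABAergic interneurons, where it is also known to be expressed. These are deviations from group means, and the genes compared share each library and its scaling, so the values are a description. The dopamine receptor gene Drd1, expressed by direct-pathway striatal neurons, reached 149 TPM in Normal Control 6, with group medians of 23.1 TPM in SKF, 23.0 TPM in Vehicle and 24.2 TPM in Normal Control. T cells are another source of Bcl11b. Of their 9 markers 4 were tested, and 3 were higher in Vehicle against Normal Control (median 1.93). The 9 summed to 4.87 to 12.8 TPM in SKF, 7.18 to 12.9 TPM in Vehicle and 2.40 to 3.84 TPM in Normal Control, with Cd2 higher by 3.19 ± 0.42 and Cd8a by 2.92 ± 0.49 on the log2 scale in Vehicle against Normal Control (edgeR adjusted p = 3.38e-07 and 1.28e-05), while Bcl11b itself was not higher. The chains of the T cell receptor complex were all low and had no common direction: Cd3e averaged 0.313 TPM in SKF, 0.159 TPM in Vehicle and 0.594 TPM in Normal Control, Cd3g 0.370, 0.695 and 0.0350 TPM, and Cd3d 0.0880, 0.0620 and 0.0219 TPM in the same groups. The part of striatal tissue, interneurons and T cells in the Bcl11b and Foxp2 differences was not tested beyond the values without Normal Control 6.

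**Figure D4:**
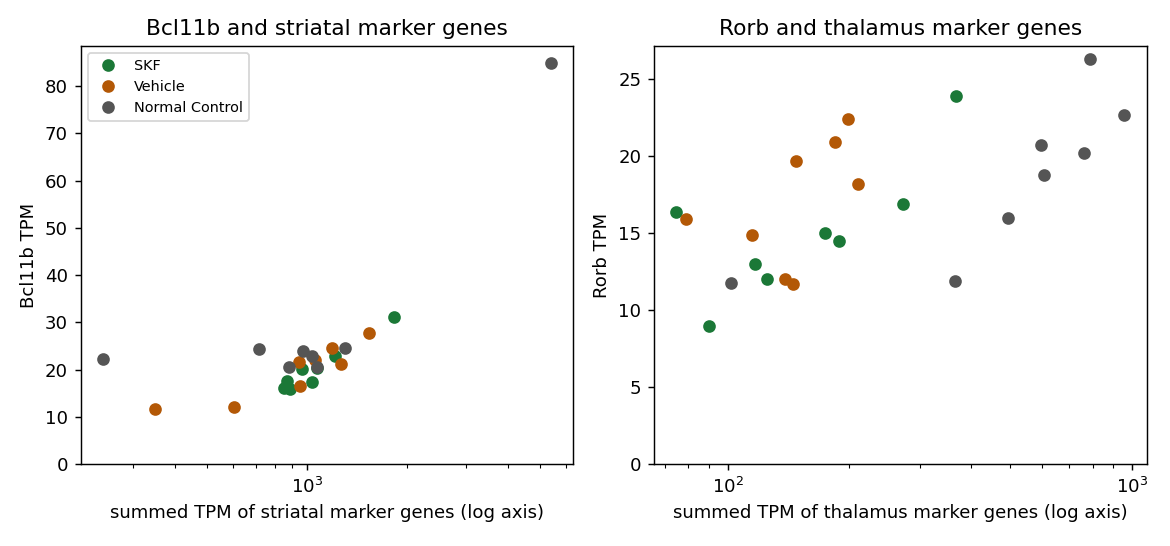
Bcl11b against the summed level of 10 striatal marker genes, and Rorb against that of 12 thalamus marker genes, per library (x axes on a log scale, all values in TPM, points coloured by group). Normal Control 6 lies alone at 5392 TPM of striatal markers and 84.8 TPM of Bcl11b, and 7 of 8 Normal Control libraries lie at 365 TPM or more of thalamus markers.

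Rorb, the nuclear receptor that marks layer 4, did not pass in any of the 3 comparisons. It had a lowest value of 8.99, a median of 14.7 and a highest value of 23.9 TPM in SKF, against 11.7, 17.1 and 22.4 TPM in Vehicle and 11.8, 19.5 and 26.3 TPM in Normal Control, and the groups overlapped. The fitted log2 fold change was -0.26 (95% interval -0.62 to 0.10, edgeR adjusted p = 0.220) in Vehicle against Normal Control and -0.40 (-0.76 to -0.04, adjusted p = 0.0575) in SKF against Normal Control. The SKF value passed without SKF 4 (-0.52, adjusted p = 0.0100), without Normal Control 3 (-0.47, adjusted p = 0.0248), without Normal Control 4 (-0.43, adjusted p = 0.0492) and without Normal Control 6 (-0.46, adjusted p = 0.0282), and it passed by DESeq2 (adjusted p = 0.0391) and by limma voom (adjusted p = 0.0255). Thalamus markers are given beside Rorb, which is also known from that region. All 12 thalamus genes were lower in both comparisons with Normal Control, with a median log2 fold change of -2.11 in Vehicle and -1.90 in SKF. Zic1 had -1.65 ± 0.22 and Synpo2 -2.54 ± 0.39 in Vehicle (edgeR adjusted p = 1.43e-06 and 1.09e-05). Their summed level was 74.7 to 368 TPM in SKF, 78.9 to 210 TPM in Vehicle and 102 to 958 TPM in Normal Control, and none was at 0 in a group. SKF 4, the SKF library with the most Rorb, was also the one with 368 TPM of thalamus markers. Within groups Rorb correlated with the thalamus score at a Pearson r of 0.71 over 24 libraries, and with the score of 14 general neuronal genes at 0.72. The thalamus score had an r of 0.28 with Neurod6 and of -0.00 with Tbr1. With Bcl11b its r was -0.71, and -0.42 without Normal Control 6. Its r was -0.40 with Fezf2, 0.38 with Cux2, 0.32 with Neurod1 and 0.30 with Neurod2. With Foxp2, which is also known from the thalamus, its r was -0.39, and 0.05 without Normal Control 6. The part of thalamic tissue in these values was not tested.

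In SKF against Vehicle, the comparison of the agonist with its carrier, 0 of the 9 genes were called by edgeR and 0 had an unadjusted p under 0.05. Fezf2 had the lowest adjusted p, 0.939. Across all genes edgeR called 0 of 14421, 715 had an unadjusted p under 0.05, DESeq2 called 6 and limma voom called 0, and the groups did not overlap for 0.0139% of genes. The log2 fold changes of the 9 genes lay between -0.14 (Rorb) and 0.17 (Fezf2), 7 of them above 0, with a median of 0.06 beside 0.00 over all genes. The intervals differed in width. They were narrow for Tbr1 (0.09, 95% interval -0.13 to 0.31), Fezf2 (0.17, -0.07 to 0.42) and Cux2 (-0.03, -0.30 to 0.23), somewhat wider for Neurod2 (0.01, -0.32 to 0.35), Foxp2 (0.02, -0.34 to 0.38) and Rorb (-0.14, -0.51 to 0.22), and widest for Neurod6 (0.06, -0.47 to 0.59), Bcl11b (0.07, -0.54 to 0.69) and Neurod1 (0.06, -0.62 to 0.75). For Neurod6 the interval does not reach the size of the Vehicle difference from Normal Control (-1.99), and differences of the size seen in Tbr1 or Cux2 against Normal Control lie within it. A p that misses the threshold does not show that the 2 groups were alike.

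Lists of related genes give the setting of these values, and their median log2 fold changes stand beside -0.01 over all genes in both comparisons with Normal Control. Of 18 tested cortical transcription factors outside the 9, 8 were lower and 0 higher in Vehicle against Normal Control (median -0.26, and -0.17 without Normal Control 6). In SKF against Normal Control 5 of them were lower and 1 was higher. Tle4, a corepressor of layer 6, fell by 0.39 ± 0.11 and Etv1, a layer 5 factor, by 0.29 ± 0.08 on the log2 scale in Vehicle against Normal Control (edgeR adjusted p = 0.00260 and 0.00279). Bhlhe22, a helix-loop-helix factor like the NeuroD proteins, fell by 0.81 ± 0.24 in Vehicle and by 0.84 ± 0.24 in SKF (adjusted p = 0.00664 and 0.00597). It is also among the genes whose pattern was most like 1 of the 9. Of 6 tested paralogs of the 9 genes (median -0.11 in Vehicle), 1 was called, Cux1, higher by 0.19 ± 0.06 in Vehicle (adjusted p = 0.00454) and by 0.15 ± 0.06 in SKF (adjusted p = 0.0314). Foxp1 had -0.31 ± 0.21 in Vehicle (adjusted p = 0.229).

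Among the partners and among the inhibitors of NeuroD proteins, some genes were higher and others lower in Vehicle against Normal Control. Of 7, 3 were higher and 3 lower in Vehicle against Normal Control (median 0.09), and 3 were higher and 2 lower in SKF against Normal Control. Id4, an Id protein of astrocytes and progenitors, averaged 37.2 ± 4.97 TPM in SKF, 36.9 ± 6.67 TPM in Vehicle and 77.8 ± 4.41 TPM in Normal Control, with no overlap between either wounded group (highest values 43.9 and 45.5 TPM) and Normal Control (lowest value 72.1 TPM). Its log2 fold change was -1.20 ± 0.10 in Vehicle (edgeR adjusted p = 3.50e-11) and -1.17 ± 0.10 in SKF (adjusted p = 7.42e-11). Id3 was also lower, by 0.26 ± 0.09 in Vehicle (adjusted p = 0.0166) and by 0.43 ± 0.09 in SKF (adjusted p = 0.000222). Id1, in contrast, was higher by 0.65 ± 0.10 in Vehicle (adjusted p = 1.90e-06) and by 0.48 ± 0.10 in SKF (adjusted p = 0.000143). Id2 was not called in either. The E protein gene Tcf3 was higher by 0.44 ± 0.09 in Vehicle. Tcf12 was higher by 0.17 ± 0.06, and Tcf4 fell by 0.19 ± 0.08.

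Markers of cortical layers were also mixed. Of 20 tested, 4 were higher and 5 lower in Vehicle against Normal Control (median -0.08), and 3 were higher and 4 lower in SKF against Normal Control. Without Normal Control 6, 6 were higher and 5 lower in Vehicle (median 0.02), and 6 higher and 4 lower in SKF. Whrn fell by 0.58 ± 0.07 and Hs3st4, a heparan sulfate sulfotransferase of layer 6 neurons, by 1.00 ± 0.13 in Vehicle (edgeR adjusted p = 5.71e-08 and 2.75e-07), with -0.58 ± 0.07 and -0.88 ± 0.13 in SKF. The 4 higher in Vehicle with all libraries were Scnn1a (1.27 ± 0.34), Ccn2 (0.82 ± 0.11), Bcl6 (0.57 ± 0.10) and Rprm (0.44 ± 0.13). Of 11 forebrain glutamatergic genes, 5 were lower and 0 higher in Vehicle (median -0.36, and -0.23 without Normal Control 6), and 4 lower and 1 higher in SKF. Camkv fell by 0.56 ± 0.12 and Chn1 by 0.51 ± 0.11 in Vehicle, while Slc17a7 had 0.05 ± 0.12 (adjusted p = 0.748). Of 14 general neuronal genes, 10 were lower and 0 higher in Vehicle (median -0.36), and 9 lower and 0 higher in SKF. Among them Tubb3 fell by 0.55 ± 0.08 and Uchl1 by 0.52 ± 0.08 in Vehicle. These neuronal falls were between -0.60 and -0.18 among the 10 called, all of them smaller than that of Neurod6. Of 7 genes of GABAergic interneurons, 4 were lower in Vehicle (median -0.40), with Vip at -1.03 ± 0.23 and Sst at -0.40 ± 0.10, and 2 were lower in SKF. The SKF count was 1 without any 1 of Normal Control 4, 5, 6 or 7, and 3 without Normal Control 1. Of 6 genes of newborn neurons 2 were higher and 3 lower in both comparisons (median -0.29 in Vehicle, and -0.19 without Normal Control 6), with Sox11 higher by 1.08 ± 0.16 and Dlx1 at -0.62 ± 0.12 in Vehicle. Of 4 cerebellar granule cell genes 3 were under the filter, and the 1 tested, Cbln1, had -1.31 ± 0.37 in Vehicle. The 4 summed to 2.79 TPM in Normal Control 6, a library also low in thalamus genes. A single gene does not show a change of granule cells. All 3 tested muscle genes were lower, Myh4 and Acta1 among them at -5.79 ± 1.38 and -4.10 ± 1.08, where Normal Control 4 alone was high. Without it they were at -0.78 and -0.20, and 1 of the 3 genes was lower and 1 higher. In SKF against Vehicle 0 genes of the 14 lists were called.

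Across libraries the 9 genes varied partly together. Deviations of log2 CPM from the group means were correlated over the 24 libraries, as a description. The median Pearson r of the 36 pairs was 0.23, with a range of -0.33 to 0.80. The highest pairs were Bcl11b with Foxp2 (0.80, and 0.64 without Normal Control 6), Tbr1 with Cux2 (0.77) and Neurod1 with Neurod2 (0.67). Neurod6 had 0.51 with Neurod1 and 0.43 with Neurod2. Tbr1 and Cux2, one a deep-layer and the other an upper-layer gene, thus varied together within groups and were higher together in the wounded groups. By ranks their correlation was lower (Spearman rho 0.55). Both also varied with the score of 14 general neuronal genes, Tbr1 with an r of 0.65 and Cux2 with an r of 0.74. That was not particular to this pair. Neurod1 (0.73), Rorb (0.72) and Neurod2 (0.69) varied with the score as well, and none of these was called higher in the wounded groups.

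Among 12289 candidate genes, the 2 most like each of the 9 were taken by the same correlation. Gabra5, a GABA-A receptor subunit of hippocampal and cortical pyramidal neurons, was closest to Neurod6 (r = 0.90). It averaged 18.6 ± 2.98 TPM in SKF, 21.1 ± 6.04 TPM in Vehicle and 48.9 ± 9.76 TPM in Normal Control. All SKF and Vehicle libraries (up to 21.8 and 33.2 TPM) were below all Normal Control libraries (35.6 TPM or more), and its log2 fold change was -1.34 in Vehicle (edgeR adjusted p = 1.86e-08) and -1.50 in SKF (adjusted p = 3.66e-09). The group means were removed before the correlation, so the shared fall did not enter it. Ppp1r21 followed (r = 0.79). Neurod1 was most like Bhlhe22 (0.87) and Cdc40 (0.82), and Neurod2 most like Nptx1 and Prdm8 (0.88 each). Tbr1 was most like Nuak1 (0.86), Fezf2 most like Rasgef1c (0.76) and Thrb (0.75), and Cux2 most like Plcxd2 (0.86) and Camk2g (0.85). Bcl11b was most like Dpy19l3 and Mctp1 (0.92 each, and 0.82 each without Normal Control 6), Foxp2 most like Nedd4 (0.87) and Ano3 (0.85), and Rorb most like Cdh7 (0.92) and Ildr2 (0.91). Likeness of pattern did not always go with likeness of response, since Rasgef1c was higher by 0.73 in Vehicle against Normal Control (adjusted p = 3.96e-05) where Fezf2 fell.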

How the data were processed

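Samples were grouped by their titles. The authors deposited a table of raw read counts per gene, made on build mRatBN7.2 per the submitters' processing notes, and a table of TPM for the same genes and samples, whose columns each sum to 1000000. RNA was extracted with a Maxwell RSC kit, poly(A)-selected and made into directional libraries, per the labels' protocols. For the aligner, the counting program and reads shared between genes, nothing is stated in the labels or headers (not given in the sources used here).

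Counts were tested by the quasi-likelihood F test of edgeR 4.0.16 (R 4.3.3), with TMM scaling, a group-wise filterByExpr and robust dispersion. One model held all 24 libraries (residual degrees of freedom 21), and p-values were adjusted by Benjamini-Hochberg over 14421 genes. The biological coefficient of variation was 16.2%. TPM gave levels between genes, and an alternative scale. Each SE is the log2 fold change divided by the root of its F. Ratios were compared by two-sided exact permutation, and their p-values adjusted over 12 tests.

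The 9 genes, the 14 lists (147 genes) and the tests were chosen with earlier results of these data known. Besides the 9, genes were named by rule: the 2 of each list with the smallest adjusted p in Vehicle against Normal Control, and the 2 most like each of the 9 (mean log2 CPM of at least 1). One gene named by this rule is not reported here. Others were chosen after their values were seen. Alternatives were RLE size factors, no filter, CPM of at least 1 in 8 libraries, DESeq2 1.42.0, limma 3.58.1 (voom with sample weights, or log2 TPM with a pseudocount of 1 or 0.1 and TPM of at least 0.5 in 8 libraries), 2-group fits, the replicate block, and libraries left out. The gene test was first run on simulated data. Summaries used SciPy 1.17.1, NumPy 2.4.6 and pandas 2.3.3 in Python 3.11.15, and plots Matplotlib 3.10.9.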

Additional observations from a re-analysis of the deposited data

Results flagged for a closer look

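Values of the 9 genes were examined in 27 sets of 8 libraries (9 genes in 3 groups) for a highest or lowest library whose gap to its neighbour, as a share of the range, was above Dixon's 95% critical value for 8 values. Chance gives about 1 such set in 20, and 3 were found. Bcl11b stood at 84.8 TPM in Normal Control 6, with a gap of 0.938 of the range, and this library also had the highest summed level of striatal genes, 5392 TPM. Bcl11b stood at 31.2 TPM in SKF 8, with a gap of 0.544 of the range, and SKF 8 had the highest striatal sum of its group, 1820 TPM, the next library being at 1213 TPM. Neurod1 stood at 7.71 TPM in SKF 3, with a gap of 0.537 of the range, and SKF 3 also had the most Bhlhe22 of its group, 25.4 TPM.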

How the results depend on the processing

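Over the settings tried, log2 fold changes of the 9 genes kept their direction and their side of the threshold in 226 of 252 cases in Vehicle against Normal Control and in 206 of 252 in SKF against Normal Control. In SKF against Vehicle 28 of 234 turned in sign, none of them called. DESeq2 called 6 genes in SKF against Vehicle where edgeR called 0. On log2 TPM (pseudocount 1 or 0.1, or no filter) 4 of the 9 genes were called in Vehicle against Normal Control and 3 in SKF against Normal Control, in place of 7 in each; the calls of Neurod1, Bcl11b and Foxp2 were lost, and in SKF that of Fezf2. The cause was not tested. With 1 library left out, 6 to 7 of the 9 were called in Vehicle and 5 to 8 in SKF against Normal Control, and 0 in SKF against Vehicle, with 7447 to 7845, 6885 to 7331 and 0 genes called in all.

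Signs turned for values near 0. Left-out libraries gave ranges in SKF against Vehicle of -0.05 to 0.22 for Neurod6, -0.14 to 0.18 for Neurod1, -0.06 to 0.10 for Neurod2, -0.06 to 0.16 for Bcl11b, -0.06 to 0.09 for Foxp2 and -0.13 to 0.03 for Cux2, and for Neurod2 of -0.07 to 0.13 in Vehicle and -0.03 to 0.15 in SKF against Normal Control. Without Normal Control 4 and 6 together Neurod2 had -0.11 in Vehicle and -0.10 in SKF. In SKF against Vehicle, voom gave Neurod1 -0.06, and log2 TPM gave Neurod2 -0.0017 (pseudocount 1, with or without the filter) and -0.0014 (pseudocount 0.1). The values without Normal Control 1 and 2 together, and those of the gene lists with a Normal Control library left out, were added after the data were seen.

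With the replicate number as a block (replicate block), 6 of the 9 genes were called in Vehicle and 5 in SKF against Normal Control, since Bcl11b (-0.66, adjusted p = 0.0851, and -0.59, adjusted p = 0.121) and, in SKF, Neurod1 (-0.83, adjusted p = 0.0602) did not pass, and 0 in SKF against Vehicle. Same-numbered libraries did not deviate together (r over 0.1 in 0 of 8 pairs in each comparison), so the numbers were not taken to pair samples. Neurod1 had the fewest reads of the 9 genes, 25 to 162 per library.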
